A study of Mus musculus with 8 samples.

Results

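The response to glucose starvation was examined in mouse embryonic fibroblasts (MEFs) that expressed the RA form of Pontin, in which the arginines that are methylated in the wild-type protein were replaced by alanine. The response was taken from 4 of the 8 RNA-seq libraries of the series, 2 RA libraries from normal medium and 2 RA libraries from glucose-starved cells. The other 4 libraries came from MEFs expressing wild-type (WT) Pontin in the same 2 media, and they entered the fit and the tests of a difference between the lines. All 4 groups shared a background of Pontin f/f MEFs, immortalised fibroblasts whose endogenous gene is removed by Cre virus, into which Flag-tagged Pontin had been brought by lentivirus under hygromycin selection. Starved cells were given medium without glucose and with dialyzed serum, and the length of starvation of the sequenced cells is not given in the sources used here. The serum of the usual culture medium is not described as dialyzed, so the media may differ in serum as well as glucose. If so, the effects of glucose and serum cannot be told apart. Each genotype was 1 stably expressing line, so the form of Pontin and the line cannot be told apart. The replicates are not stated to be separate cultures, so the p-values measure the spread between these libraries, which may be technical.

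Glucose feeds glycolysis, glycosylation in the endoplasmic reticulum (ER) and the supply of citrate for lipids. When it runs out, the kinase AMPK becomes active, the kinase complex mTORC1 is shut down, and misglycosylated proteins collect in the ER. Cells are known to answer through several transcription factors. ATF4 and its partner CHOP drive genes of amino acid supply, ATF6 and XBP1 drive genes of ER folding, TFEB and TFE3 drive lysosomal genes, SREBP2 and SREBP1 drive sterol and fatty acid synthesis, and MondoA reports the level of glucose phosphate. Ruvbl1 encodes Pontin, a hexameric ATPase that belongs to the TIP60, INO80 and SRCAP chromatin complexes, and the study examines whether its methylation is needed for the autophagy genes induced by starvation.

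Values are CPM, reads scaled by a library size that the authors had adjusted for each sample, and changes are differences of log2(value + 1), starved minus normal, with their standard error (SE). A gene was called when its limma p-value, adjusted by Benjamini-Hochberg over all tested genes, was under 0.05. The RA libraries held between 43205841 and 52337165 reads, and a value of 3 reads lay between 0.0581 and 0.069. Whether both mates of a pair were counted is not given in the sources used here, so read numbers may be up to 2 times the number of fragments. Replicates were not copies of each other. Per degree of freedom, the chi-square of their counts was 5.99 for the RA libraries in normal medium and 14.6 for the starved RA libraries, the highest of the 4 groups. If both mates were counted, these values are inflated by up to 2 times. Of 14 fibroblast markers 13 passed the filter on low values, and their summed level went from 11112 and 11449 in normal medium to 7532 and 7537 under starvation, with 7 lower and 3 higher. Of 14 leukocyte markers, Ptprc, Tyrobp and Cd3e, which define leukocytes and their branches, lay at 0 to 2 reads per library. However, 3 others of the 14 passed the filter, with 2 called higher (1 without RA replicate 2 of starvation) and 1 lower. The summed level of that list is given with the interferon genes.

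Ruvbl1 stood at 36.8 and 32.0 in normal medium and 45.0 and 42.9 under starvation in the RA line, a log2 change of 0.35 (SE 0.065, limma adjusted p = 0.000151). The table does not separate reads of the added copy from reads of the endogenous gene, so these values do not check the genotype. In the WT line Ruvbl1 stood at 28.4 and 27.6 in normal medium and 27.9 and 28.4 under starvation.

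Starvation moved 11157 of 16232 tested genes in the RA line, which is 68.7%. Of these 5687 (35.0% of tested genes) were higher and 5470 (33.7%) lower under starvation. Most moves were small, since 6828 of the called genes (61.2%) changed by less than 1.5-fold. A change of 2-fold or more was found in 721 genes that rose and 744 that fell, and a change of 4-fold or more in 104 and 87. These fold limits and those below were set on the change of log2(value + 1). At low values that change is smaller than the ratio of the values, so genes with low values can be missed by the limits. The median change over all tested genes was 0.013, and the quartiles lay at -0.33 and 0.33. In every gene whose 4 RA values are given below, the starved libraries lay outside the range of the normal ones. With so many genes called, a list of genes is described below by how far its counts and its median depart from these values. Some genes stand on several lists, such as Bnip3 under hypoxia and autophagy and Sesn1 under p53 and FOXO. The lists are therefore not separate measurements.

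The genes with the largest rise were led by Sh2d6, which encodes an SH2 domain protein and stood at 0.828 and 0.484 in normal medium and 40.6 and 44.9 under starvation. Its change was 4.73 (SE 0.11, limma adjusted p = 1.36e-15). Angptl6, a secreted angiopoietin-like factor, stood at 4.30 and 4.63 in normal medium and 104 and 102 under starvation, a rise of 4.25 (SE 0.067, limma adjusted p = 1.02e-17). Only genes whose starved and normal libraries did not overlap were ranked here, so the lack of overlap is no separate result. Ddit3, which encodes CHOP, and Trib3, a pseudokinase that restrains ATF4 and CHOP, came next among genes of known function. Ddit3 stood at 49.6 and 52.7 in normal medium and 664 and 658 under starvation, and Trib3 at 27.3 and 26.8 in normal medium and 347 and 339.8 under starvation. Their changes were 3.67 ± 0.041 and 3.62 ± 0.044 (SE, n = 2 per group, limma adjusted p = 3.96e-19 and 6.58e-19). The rest of the 15 largest rises held Gadd45a, an inhibitor of the cell cycle (3.58), Chac1, an enzyme that degrades glutathione (3.26), Slc7a3, a carrier of arginine and lysine (3.21), and Adm2, a secreted peptide of the adrenomedullin family (3.19). They also held Acot2, a mitochondrial acyl-CoA thioesterase (3.58), Plin4, a coat protein of lipid droplets (3.37), Cdsn, an adhesion protein of skin (3.58), and Avil, an actin-binding protein (3.56). Fibin, a secreted factor, rose by 3.22, and the transcripts Gm19410 and E230016M11Rik by 4.02 and 3.26. E230016M11Rik shares exon bases with Gadd45a, Angptl6 with A230050P20Rik, Avil with Tsfm and Ddit3 with Mars, in each case on the opposite strand in GENCODE M21. Whether the counting kept such pairs apart is not given in the sources used here, and each of these genes is uncertain to that extent.

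At the other end stood Txnip, an arrestin that blocks glucose uptake and is itself induced by glucose, with Gm15441, a transcript antisense to it. Txnip stood at 40.4 and 36.3 in normal medium and 1.998 and 2.35 under starvation, a change of -3.63 (SE 0.11, limma adjusted p = 1.23e-14). Gm15441 moved with it at -3.63, and the shared exon bases leave the values of the pair unseparated. Plk1, the kinase that drives entry into and passage through mitosis, stood at 81.8 and 91.5 in normal medium and 9.17 and 6.86 under starvation, a change of -3.29 (SE 0.1, limma adjusted p = 4.07e-14). Also among the 15 genes that fell most were Pif1, a DNA helicase (-3.29), Cenpf (-2.81), Kif2c (-2.78), Kif11 (-2.77), Nuf2 (-2.75), Cdca3 (-2.75) and Fam64a (-2.82). The same 15 held Fst, which binds activin, at 154 and 160.4 to 15.9 and 17.1 (-3.18), Apln, the peptide apelin (-2.84), and F2rl1, a receptor cleaved by proteases (-2.72). Elovl6, which lengthens fatty acids, fell by 3.07 on the log2 scale, and Hmgb3, a DNA-binding protein, changed by -2.95.

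**Figure D1:**
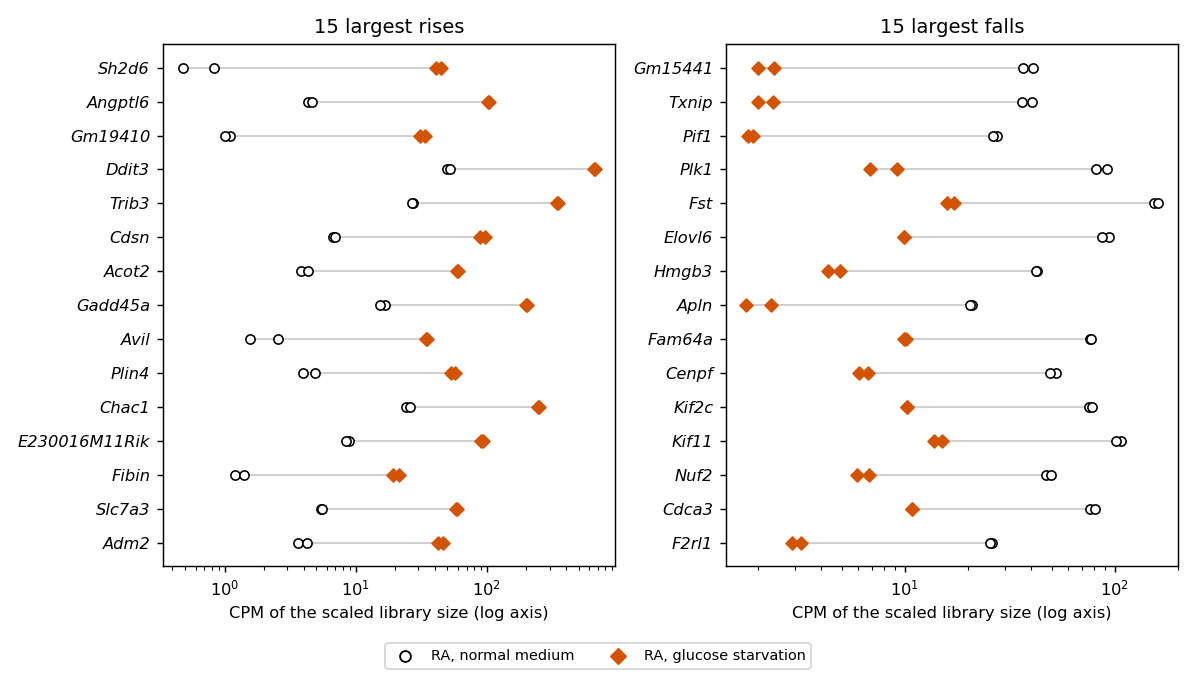
Value of each gene in each of the 4 RA libraries (CPM of the scaled library size, log axis) for the 15 called genes with the largest rise (left) and the 15 with the largest fall (right). Open circles are the 2 libraries from normal medium and filled diamonds the 2 starved libraries. In every gene shown the 2 groups lie apart, which was a condition of the choice. Txnip goes from 40.4 and 36.3 to 1.998 and 2.35.

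**Figure D2:**
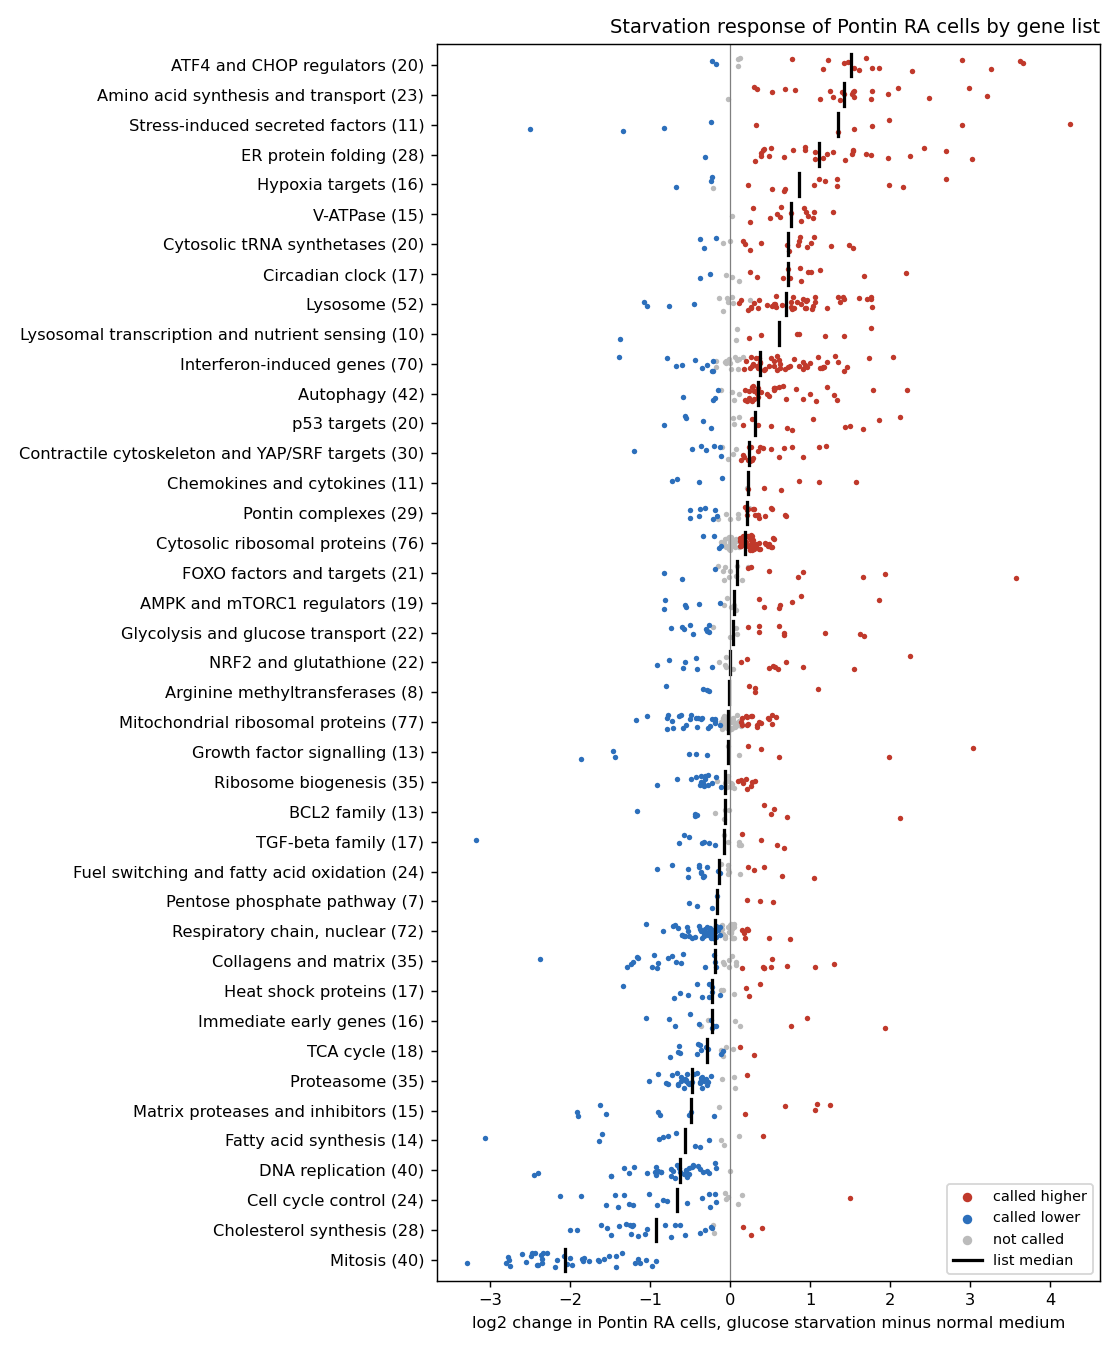
Log2 change in RA cells, starved minus normal, of the tested members of 41 gene lists, ordered by list median (black bar), with the number tested in brackets. Red points were called higher, blue points lower and grey points were not called. The lists run from ATF4 and CHOP regulators (median 1.51) to mitosis (median -2.06).

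The glucose-sensing branch was examined first. MondoA acts through carbohydrate response elements, pairs of E-box-like letters set apart by a short gap, and the promoter of Txnip held such a pair. The letters searched were CACNNGNNNNNCACNNG, on either strand of the 250 bases before the RefSeq start in GRCm38.p6. This is a later build than the mm9 genome of the read values, and a match of letters here and below is a description and not a site in use. They are shown in capitals for Txnip, and in the promoters printed further on a match on the other strand appears as its reverse complement.
Txnip (chr3:96557852-96557908, plus strand): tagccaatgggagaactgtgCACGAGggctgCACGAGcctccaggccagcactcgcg
The same letters stood in 1.12% of the 10351 tested genes that had a promoter in the table. Of the glucose-induced arrestins, Txnip is described above and Arrdc4 stood at 1.56 and 1.20 in normal medium and 0.47 and 0.372 under starvation, a change of -0.74 (SE 0.14, limma adjusted p = 0.000171). Mlxip, which encodes MondoA itself, changed by 0.10 (SE 0.043, limma adjusted p = 0.0467), a call that was lost on leaving out any 1 of the 8 libraries, with changes between 0.085 and 0.12.

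Of 6 tested carriers of sugar and lactate, 4 rose and none fell, and 1 was called lower without RA replicate 2 of normal medium. Slc2a1, the main glucose carrier of fibroblasts, stood at 98.5 and 98.3 in normal medium and 226 and 225 under starvation, a change of 1.19 (SE 0.037, limma adjusted p = 2.65e-14), and Slc16a1, which carries lactate and pyruvate, rose by 0.61. Slc2a6, a further sugar carrier, rose from 0.414 and 0.465 to 3.02 and 3.88 (1.62 ± 0.14). Among 16 enzymes of glycolysis, 5 rose (31.2%, beside 35.0% of all genes) and 9 fell (56.2%, beside 33.7%). Several enzymes of the lower part of the pathway were lower, with Pgam1 at 800.3 and 811 to 483 and 483 (-0.74 ± 0.036), Eno1 at -0.61 and Pgk1 at -0.30. Eno2, which shares its reaction with Eno1, rose from 9.61 and 9.49 to 33.3 and 32.2 (1.68 ± 0.068), and Hk2, the inducible hexokinase, rose by 0.68. All 7 enzymes of the pentose phosphate pathway were called, beside 68.7% of all genes. Of these 3 were higher (42.9%, beside 35.0%) and 4 lower (57.1%, beside 33.7%), with G6pdx, the first enzyme of the pathway, at -0.42. The call of Rpia, which rose by 0.21, was lost without RA replicate 1 of normal medium (limma adjusted p = 0.122) and without either starved RA library (0.0896 and 0.0534).

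Most genes that respond to hypoxia rose. Of 16 tested targets of the hypoxia factors, 12 rose and 3 fell (1 without RA replicate 2 of starvation), with a median of 0.86 beside 0.013 for all genes. Vegfa, the vascular growth factor, stood at 66.2 and 70.8 in normal medium and 275 and 271 under starvation, a change of 1.98 (SE 0.04, limma adjusted p = 1.88e-16). Ndrg1 rose by 2.16, Pdk1, a kinase that closes the entry of pyruvate into mitochondria, by 1.05, and Bnip3, a receptor for the removal of mitochondria, by 1.33. Egln1, one of the oxygen-sensing hydroxylases, was lower (-0.68), and the value of Egln3 was -0.21 and was not called.

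Most genes of the TCA cycle and of respiratory complexes III, IV and V fell by small amounts. Of 18 tested genes of the TCA cycle, 12 fell and 2 rose (1 without RA replicate 2 of normal medium or 1 of starvation), with Sdhd, a subunit of succinate dehydrogenase, at -0.76, Idh2 at -0.65 and Cs, citrate synthase, at 311 and 336 to 208 and 210.5 (-0.63 ± 0.04). Nuclear genes of the respiratory chain showed 43 of 72 lower and 8 higher, or 5 higher without RA replicate 1 of normal medium. The decline lay mainly in complexes III, IV and V, where 29 of 35 fell with a median of -0.31, beside 14 of 37 in complex I with a median of -0.067. Uqcrh stood at 232 and 238 in normal medium and 117 and 109 under starvation, a change of -1.05, while Uqcrq, of the same complex, rose by 0.75. In fatty acid oxidation 9 of 18 genes fell and 3 rose, among them Acadm, the medium-chain dehydrogenase, at -0.91.

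The ATF4 and CHOP branch gave the highest median of all lists. Of its 20 tested members 15 rose, 2 fell and 3 were not called, with a median of 1.51. All 7 transcription factors rose. Atf4 itself stood at 433 and 465 in normal medium and 1014 and 999.8 under starvation, a change of 1.16 (SE 0.043, limma adjusted p = 2.86e-13). Atf3 stood at 16.8 and 18.3 in normal medium and 87.6 and 89.5 under starvation (2.27 ± 0.053), and Atf5 and Nupr1, a small stress protein of chromatin, rose by 1.61 and 1.42. In the feedback arm Ppp1r15a, which recruits the phosphatase that restores translation, rose from 49.6 and 53.7 to 383 and 398 (2.90 ± 0.045). Sesn2, an inhibitor of mTORC1, rose by 1.86 and Ddit4, another such inhibitor, by 0.77. None of the kinases that start the branch was called higher. Eif2ak1 and Eif2ak2 were lower by small amounts (-0.18 and -0.23), and Eif2ak3 and Eif2ak4, looked up after their values were seen, had changes of 0.13 and 0.10 and were not called. The secreted factors of the branch rose as well, with Gdf15 going from 0.92 and 0.853 to 5.25 and 5.62 (1.77 ± 0.15) and Fgf21 from 0.046 and 0.0775 to 2.08 and 2.11. In normal medium Fgf21 had 2 and 4 reads, near the floor of 3 reads. Most low values were even numbers of reads, so that these may be fewer fragments.

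ATF4 with its C/EBP partners binds a composite element, and the letters TGATGCAA were searched on both strands. They stood in 4 of 19 promoters of the branch, 3 of 18 of the amino acid genes and 2 of 12 of the tRNA synthetases, against 0.628% of tested genes with a promoter. The promoters of Chac1, Atf3 and the cystine carrier Slc7a11 are shown with these letters in capitals, since they are among the strongest risers that hold them.
Chac1 (chr2:119351029-119351076, plus strand): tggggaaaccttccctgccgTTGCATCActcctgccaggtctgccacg
Atf3 (chr1:191183416-191183463, minus strand): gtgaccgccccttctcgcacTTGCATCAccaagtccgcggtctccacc
Slc7a11 (chr3:50443633-50443699, minus strand): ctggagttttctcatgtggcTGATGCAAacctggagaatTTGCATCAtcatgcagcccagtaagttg

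Genes that make and import amino acids rose almost as a body. Of 23 tested genes 22 rose and none fell, with a median of 1.42. Cbs, at -0.024, was the member not called and was looked up after its value was seen. Asns, asparagine synthetase, stood at 135 and 141 in normal medium and 469 and 477 under starvation, a change of 1.77 (SE 0.044, limma adjusted p = 2.06e-15). Cth, which makes cysteine from cystathionine, stood at 18.8 and 18.7 in normal medium and 159 and 152 under starvation, a change of 2.99 (SE 0.047, limma adjusted p = 1.02e-17). Aldh1l2 and Mthfd2, folate enzymes of mitochondria, rose by 2.49 and 1.54, and Psat1, a serine enzyme, by 0.34. Among the carriers, Slc7a11 rose from 11.1 and 12.6 to 36.4 and 37.0 (1.55 ± 0.071), Slc6a9, a glycine carrier, by 2.10, and Slc3a2, the heavy chain shared by several carriers, by 1.54. The enzymes that load tRNAs followed in part. Of 20 cytosolic tRNA synthetases 15 rose and 3 fell, with a median of 0.73. Wars rose from 82.6 and 90.9 to 251 and 256 (1.54 ± 0.044), Sars by 1.48 and Eprs by 1.27, while Kars, Farsa and Hars were lower (-0.37, -0.33 and -0.18).

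ER folding genes rose in 27 of 28 tested cases, with a median of 1.11. The exception was P4hb, a disulfide isomerase that also serves collagen hydroxylation, at 848 and 876 to 694 and 685 (-0.32 ± 0.038). Hspa5, the central ER chaperone BiP, stood at 1152 and 1142 in normal medium and 3338 and 3271 under starvation, a change of 1.53 (SE 0.045, limma adjusted p = 1.29e-14). Herpud1, which takes part in the removal of misfolded proteins, stood at 72.2 and 75.8 in normal medium and 614 and 598 under starvation, a change of 3.02 (SE 0.039, limma adjusted p = 1.4e-18). Ero1l, the oxidase that feeds disulfide formation, rose by 2.69, Sdf2l1 by 2.42 and Dnajb9 by 2.25. The sensors and the disposal genes were all called higher, 11 of 11, with Xbp1 at 1.06, Ern1, which encodes the sensor IRE1, at 1.54 and Sel1l at 1.97. 

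The ER stress element joins CCAAT and CCACG across a gap of fixed length, searched here as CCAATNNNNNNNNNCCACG on both strands. It stood in 8 of 22 promoters of the list and in 15 of 10351 tested genes with a promoter (0.145%). The letters are shown in capitals in 4 genes of the list, of which Hsp90b1 held 2 copies. Calr and Creld2 fell outside the naming rule and were added after their values were seen.
Hspa5 (chr2:34772005-34772063, plus strand): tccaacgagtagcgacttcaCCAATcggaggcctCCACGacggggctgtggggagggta
Hsp90b1 (chr10:86705513-86705676, minus strand): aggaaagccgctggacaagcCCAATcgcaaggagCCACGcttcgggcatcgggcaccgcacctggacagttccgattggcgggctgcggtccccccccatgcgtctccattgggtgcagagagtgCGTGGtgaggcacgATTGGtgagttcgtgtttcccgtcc
Calr (chr8:84847055-84847113, minus strand): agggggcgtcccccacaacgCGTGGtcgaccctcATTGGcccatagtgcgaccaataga
Creld2 (chr15:88819500-88819558, plus strand): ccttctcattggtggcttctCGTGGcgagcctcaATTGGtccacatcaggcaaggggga
These genes rose by 1.53, 0.67, 0.94 and 1.76. 

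Protein folding outside the ER moved the other way. Of 17 heat shock genes 11 fell and 3 rose, with a median of -0.23. Hspb8, a small heat shock protein, fell from 85.5 and 87.2 to 35.3 and 31.7 (-1.34 ± 0.058), and Hspa4 and Dnaja1 changed by -0.70 and -0.63. Hspa8, the constitutive chaperone of the cytosol, was higher (0.37), as was Hsf1, the heat shock factor (0.24). Proteasome subunits fell in 31 of 35 cases, with a median of -0.47, led by Psmd1 at 222 and 228 to 109.9 and 112 (-1.01 ± 0.038), Psma7 (-0.91) and Psma5 (-0.80). Psmd8 was the subunit called higher (0.21). Cytosolic ribosomal proteins rose slightly, 51 of 76 with 4 lower and a median of 0.19. The number lower was 8 without RA replicate 1 of normal medium and 2 without any other RA library. Rpl17 had the largest rise at 0.55, followed by Rpl12 at 0.54 and Rpl28 at 0.52, while Rpl41 was lower (-0.34). Many of these genes have processed copies in the genome, so reads could have been split between them. Mitochondrial ribosomal proteins were divided, with 18 of 77 higher (23.4%, beside 35.0% of all genes) and 25 lower (32.5%, beside 33.7%). Ribosome biogenesis genes had 8 of 35 higher (22.9%, beside 35.0%) and 16 lower (45.7%, beside 33.7%), from Nop10 at -0.92 to Heatr1 at 0.31.

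Autophagy genes, the class the study is concerned with, were taken by step. Of 42 tested genes 34 rose and 4 fell, that is 81.0% higher beside 35.0% of all genes, with a median of 0.34. The 4 that fell became 1 without RA replicate 1 of normal medium and 2 without RA replicate 1 of starvation. In initiation 4 of 5 rose, led by Atg13, a subunit of the ULK1 complex, at 21.2 and 24.0 to 48.7 and 48.3 (1.07 ± 0.061), with Rb1cc1, the scaffold FIP200, at 0.998 and Ulk1 at 0.28. In nucleation 5 of 7 rose, led by Atg14, which directs the lipid kinase VPS34 to autophagosomes, at 11.0 and 11.6 to 28.0 and 26.7 (1.20 ± 0.085), with Uvrag at 0.61 and Becn1 at 0.56. Among 22 genes of elongation and conjugation 18 rose with a median of 0.31. Wdr45 rose by 0.91, Atg12 by 0.82 and Gabarapl1 by 0.54. Map1lc3b, which encodes the LC3B protein of autophagosome membranes, stood at 115 and 117 in normal medium and 143 and 136 under starvation, a change of 0.27 (SE 0.042, limma adjusted p = 2.08e-05). Wipi1, which binds the lipid made by VPS34, was lower (-0.19), but its call was lost without RA replicate 1 of normal medium (-0.18) or of starvation (-0.083). The cargo receptors had the highest median of the steps at 0.93, with 7 of 8 higher. Sqstm1, the receptor p62 for ubiquitylated cargo, stood at 208 and 215 in normal medium and 987 and 984 under starvation, a change of 2.21 (SE 0.036, limma adjusted p = 1.5e-17). Optn rose by 1.79, Bnip3 by 1.33 and Calcoco1 by 1.30, and Fundc1, a mitochondrial receptor, was lower (-0.59). Exon bases of Sqstm1 overlap Mrnip and those of Becn1 overlap Cntd1 on the opposite strand.

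Of 52 tested lysosomal genes 41 rose and 4 fell, with a median of 0.70. Among hydrolases, Idua and Hexa, which trim sugars from glycosaminoglycans or glycolipids, rose by 1.76 and 1.71. Hexa stood at 57.1 and 60.5 in normal medium and 191 and 199 under starvation (limma adjusted p = 6.73e-15). Ctsd, the aspartyl protease cathepsin D, stood at 229.9 and 229.9 in normal medium and 395 and 386 under starvation, a change of 0.76 (SE 0.036, limma adjusted p = 6.07e-12). The hydrolases that fell were Ctss (-1.09), Gusb (-1.04), Ctsh (-0.77) and Ids (-0.45), the last looked up after its value was seen. On the membrane, Ctns, the cystine exporter, rose by 1.76 and Mcoln1, the calcium channel of lysosomes, stood at 40.9 and 42.9 in normal medium and 129 and 129.7 under starvation, a change of 1.60 (SE 0.041, limma adjusted p = 2.68e-15). Lamp1, the main glycoprotein of the membrane, rose by 0.79. Subunits of the proton pump rose in 14 of 15 cases, with a median of 0.76. Atp6v0b led them at 61.5 and 63.0 to 156 and 151 (1.29 ± 0.041), with Atp6v1c1 at 1.04 and Atp6v0d1 at 1.029. Of 10 factors and regulators of lysosomal genes and nutrient sensing 7 rose and 1 fell. Flcn, which controls TFEB and TFE3 at the lysosome, rose from 32.2 and 30.6 to 110.0 and 108 (1.76 ± 0.043) and its partner Fnip1 by 1.42, while Tfeb, present at a low level, fell from 5.75 and 6.16 to 1.84 and 1.53 (-1.38 ± 0.12).

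TFEB and TFE3 bind the CLEAR element, whose core TCACGTGA reads the same on both strands. It stood in 5 of 40 lysosomal promoters, 1 of 11 of the proton pump and 2 of 34 of the autophagy list, against 1.71% of tested genes with a promoter. Shown are Mcoln1, Ctsd and Gla, a lysosomal galactosidase, with the core in capitals.
Mcoln1 (chr8:3500453-3500500, plus strand): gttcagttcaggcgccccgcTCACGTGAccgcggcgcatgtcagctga
Ctsd (chr7:142387899-142387946, minus strand): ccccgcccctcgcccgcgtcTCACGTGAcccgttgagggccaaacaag
Gla (chrX:134601173-134601253, minus strand): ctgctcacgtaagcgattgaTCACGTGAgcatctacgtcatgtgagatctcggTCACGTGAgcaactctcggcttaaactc
Gla rose by 0.95.

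Most genes of sterol synthesis fell. Of 28 tested genes of cholesterol synthesis and its control 23 fell and 3 rose, with a median of -0.92, and 18 of the 20 enzymes fell. Without RA replicate 2 of starvation 1 gene was called higher in place of 3. Idi1, which isomerises the isoprene unit, stood at 196 and 191 in normal medium and 48.5 and 46.5 under starvation, a change of -2.002 (SE 0.05, limma adjusted p = 1.71e-15). Hmgcs1, the synthase at the head of the pathway, stood at 203 and 191 in normal medium and 65.9 and 60.9 under starvation, a change of -1.62 (SE 0.045, limma adjusted p = 8.14e-15). Sqle, squalene epoxidase, changed by -0.70 and Insig1, which holds SREBP in the ER, by -0.74. Mylip, a ubiquitin ligase, rose by 0.40. Fatty acid synthesis moved the same way, with 10 of 14 genes lower and 1 higher, a rise that was not called without RA replicate 1 of normal medium. Elovl6 stood at 94.1 and 86.7 in normal medium and 9.87 and 9.91 under starvation (SE 0.065, limma adjusted p = 3.09e-16), and Scd2, a desaturase, fell from 1033 and 1045 to 333 and 351 (-1.60 ± 0.038). Fasn and Scd1 changed by -0.84 and -0.89. The sterol response letters TCACNCCAC were found in 1 of 20 promoters of the sterol list, that of Hmgcs1, in 0 of 11 promoters of the fatty acid list and in 1.24% of tested genes with a promoter.
Hmgcs1 (chr13:119690194-119690242, plus strand): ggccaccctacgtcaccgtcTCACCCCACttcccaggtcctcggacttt

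Cell division gave the deepest fall of any list. All 40 tested mitotic genes fell, with a median of -2.06 and a range from -3.29 to -0.93, beside 33.7% of all genes called lower. Cdk1, the kinase of mitosis, stood at 243 and 249 in normal medium and 54.9 and 53.3 under starvation, a change of -2.16 (SE 0.042, limma adjusted p = 1.22e-16). Ccnb1, its cyclin, stood at 195 and 189.8 in normal medium and 35.4 and 35.0 under starvation, a change of -2.42 (SE 0.044, limma adjusted p = 5.35e-17). Mki67, the antigen used to mark dividing cells, fell from 206 and 191 to 30.9 and 32.5 (-2.61 ± 0.054). Genes of DNA replication fell less, 39 of 40 with a median of -0.63. Cdt1, a licensing factor looked up after its value was seen, was the member not called (-0.0058). Rrm2 and Tk1, which supply nucleotides, fell most, with Rrm2 at 106 and 119 to 19.6 and 19.7 (-2.46 ± 0.056) and Tk1 at -2.41. Mcm5, a helicase subunit, stood at 203 and 203 in normal medium and 80.7 and 80.03 under starvation, a change of -1.33 (SE 0.037, limma adjusted p = 6.64e-15), and Pcna, the sliding clamp, changed by -0.63. In bulk RNA, fewer dividing cells and less of each RNA per cell cannot be told apart.

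Mitotic promoters often carry the letters TTTGAA, known as the CHR element, and replication promoters carry E2F letters, searched as TTTCCCGC and TTTGGCGC. The CHR letters stood in 12 of 33 mitotic promoters and in 13.2% of tested genes with a promoter. The E2F letters stood in 6 of 31 replication promoters and in 2.82%. Cdk1 and Mki67 are shown for the first with CHR in capitals, and Mcm5 and Mcm6 for the second.
Cdk1 (chr10:69352913-69353003, minus strand): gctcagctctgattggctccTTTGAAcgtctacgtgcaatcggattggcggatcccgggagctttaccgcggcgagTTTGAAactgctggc
Mki67 (chr7:135716452-135716515, minus strand): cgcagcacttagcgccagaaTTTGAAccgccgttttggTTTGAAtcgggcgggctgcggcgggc
Mcm5 (chr8:75109340-75109387, plus strand): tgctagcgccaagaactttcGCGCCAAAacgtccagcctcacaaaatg
Mcm6 (chr1:128359725-128359835, minus strand): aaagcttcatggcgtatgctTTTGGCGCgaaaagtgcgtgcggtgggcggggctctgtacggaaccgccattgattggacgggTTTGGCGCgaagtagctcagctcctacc

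Upstream of both, 18 of 24 genes of cell cycle control fell and 1 rose (2 without RA replicate 1 of starvation). Ccnd1, the cyclin that growth factors induce, stood at 353 and 356 in normal medium and 79.9 and 81.4 under starvation, a change of -2.12 (SE 0.044, limma adjusted p = 2.18e-16). Cdkn2d and E2f8 changed by -1.86 and -1.55, and Skp2, which marks p27 for degradation, by -1.22. The gene that rose was Cdkn1a, the inhibitor p21, from 9.10 and 10.1 to 28.9 and 28.6 (1.49 ± 0.094). Among 20 p53 targets 12 rose and 5 fell. Pmaip1, the death protein NOXA, rose by 2.12, Trp53inp1 by 1.66 and Mdm2 by 0.35, while Sesn1 and Phlda3 changed by -0.83 and -0.57. Of 13 tested members of the BCL2 family 5 rose (38.5%, beside 35.0% of all genes) and 4 fell (30.8%, beside 33.7%). Bak1, a pore-forming death protein, fell from 68.2 and 74.4 to 31.0 and 31.1 (-1.17 ± 0.052) and Mcl1, a survival protein, changed by -0.44.

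Interferon-induced genes mostly rose in the RA line. Of 70 tested genes 46 rose, 10 fell and 14 were not called, with a median of 0.37. Of the antiviral effectors 22 of 26 rose. Ifi44 had the largest rise among them, at 185 and 181 in normal medium and 507 and 504 under starvation (1.46 ± 0.041), and Oasl2 rose by 1.17, Ifit3 by 0.99, Rsad2 by 0.96 and Isg15, the ubiquitin-like modifier, by 0.35. Ifit1 stood at 270.0 and 277 in normal medium and 370.4 and 366 under starvation, a change of 0.43 (SE 0.042, limma adjusted p = 1.15e-07). GTPases were split, with 6 of 11 higher (54.5%, beside 35.0% of all genes), such as Gbp6 (1.74). Another 3 were lower (27.3%, beside 33.7%), such as Igtp (-0.68). Of the sensors and regulators, Zbp1 rose by 2.04 and Irf7, the master factor of the interferon response, by 1.21, while Ifih1 (-0.02) was not called and Socs1 and Mb21d1, the sensor cGAS, changed by -0.79 and -1.39. Genes of antigen presentation rose in 7 of 10 cases with none lower. H2-K1 stood at 90.8 and 90.1 in normal medium and 248 and 240.3 under starvation, a change of 1.42, and B2m, the light chain of class I molecules, at 623 and 701 in normal medium and 1453 and 1430.1 under starvation, a change of 1.12 (limma adjusted p = 2.32e-12). Chemokines were few, with 11 of 18 passing the filter. Of these 6 rose (54.5%, beside 35.0% of all genes) and 4 fell (36.4%, beside 33.7%). The 4 that fell became 2 without RA replicate 1 of starvation. Ccl20 stood at 1.57, Ccl5 at 1.11, Cxcl10 at 0.63 and Cxcl12 at -0.73. Members such as Ifit3 and Ifit3b, Tgtp1 and Tgtp2, and the class I genes are close copies of each other, so their reads could have been split. Exon bases of Cxcl10 overlap Art3 on the opposite strand and those of Igtp overlap Irgm2 on the same strand. Of 14 leukocyte markers 3 passed the filter, and the summed level of the list was 136 and 137 in normal medium and 146 and 148 under starvation.

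The interferon response element was searched as GAAANNGAA on both strands, and overlapping matches form the repeated element. It stood in 23 of 52 promoters of the list and in 7.60% of tested genes with a promoter. Shown are Ifit1 and Ifit3, whose responses were among the furthest apart between the lines, and Isg15, with matches in capitals.
Ifit1 (chr19:34640760-34640833, plus strand): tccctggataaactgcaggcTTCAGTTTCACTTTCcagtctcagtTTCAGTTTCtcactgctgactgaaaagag
Isg15 (chr4:156200856-156200916, minus strand): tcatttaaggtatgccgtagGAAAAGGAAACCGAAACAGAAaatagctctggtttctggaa
Ifit3 (chr19:34583354-34583455, plus strand): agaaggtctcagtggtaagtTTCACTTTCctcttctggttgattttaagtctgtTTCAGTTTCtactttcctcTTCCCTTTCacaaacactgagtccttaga

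Most collagens fell and most contractile genes rose. Of 16 tested collagens 11 fell and 2 rose, with a median of -0.44. Col3a1 stood at 245 and 233 in normal medium and 46.9 and 43.3 under starvation, a change of -2.38 (SE 0.048, limma adjusted p = 1.69e-16). Col1a1, the main fibrillar collagen, stood at 1555 and 1585 in normal medium and 637 and 642 under starvation, a change of -1.29 (SE 0.04, limma adjusted p = 2.65e-14). Of 19 matrix glycoproteins and modifiers 7 rose (36.8%, beside 35.0% of all genes) and 8 fell (42.1%, beside 33.7%). They ran from Thbs1, a thrombospondin, at 2585 and 2521 to 1075 and 1079 (-1.24 ± 0.041) to Fbln5 at 1.06 and Dcn, decorin, at 1.30. Fn1, fibronectin, was higher (0.42). Matrix proteases and their inhibitors fell in 9 of 15 cases. Adamts5 fell from 142 and 140.3 to 35.4 and 38.03 (-1.91 ± 0.049), and Adamts1 and Plat changed by -1.90 and -1.62, whereas Timp3, an inhibitor bound to the matrix, rose from 537 and 539 to 1257 and 1302 (1.25 ± 0.038). 

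Of 18 contractile genes 12 rose and 3 fell. Acta2, smooth muscle actin, stood at 1698 and 1835 in normal medium and 3865 and 3734 under starvation, a change of 1.11 (SE 0.048, limma adjusted p = 2.51e-12). Of 7 muscle markers 1 passed the filter, and their summed level was 16.4 and 16.7 in normal medium and 14.8 and 13.3 under starvation. Actg2, a further smooth muscle actin, and Tagln, which binds actin, rose by 1.19 and 0.91, and Tagln2, Tpm1 and Actb changed by -1.20, -0.48 and -0.30. Of 12 targets of YAP and SRF 7 rose (58.3%, beside 35.0% of all genes) and 4 fell (33.3%, beside 33.7%), none by as much as 2-fold. The 4 that fell became 2 without RA replicate 2 of normal medium or 1 of starvation. Ctgf stood at -0.37, Cyr61 at 0.24 and Yap1 itself at 0.51. In the TGF-beta family 8 of 17 fell (47.1%, beside 33.7% of all genes) and 4 rose (23.5%, beside 35.0%), with a median of -0.076. Fst led the fallers, and Inhbb (0.67) and Smad7 (0.59), an inhibitor of the pathway, led the risers. In growth factor signalling 5 of 13 genes rose (38.5%, beside 35.0% of all genes) and 6 fell (46.2%, beside 33.7%). Igfbp4, which binds insulin-like growth factors, rose from 7.40 and 8.02 to 68.2 and 73.1 (3.04 ± 0.07), and Irs1, the adaptor of the insulin receptor, and Pdgfra changed by -1.87 and -1.47.

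**Figure D3:**
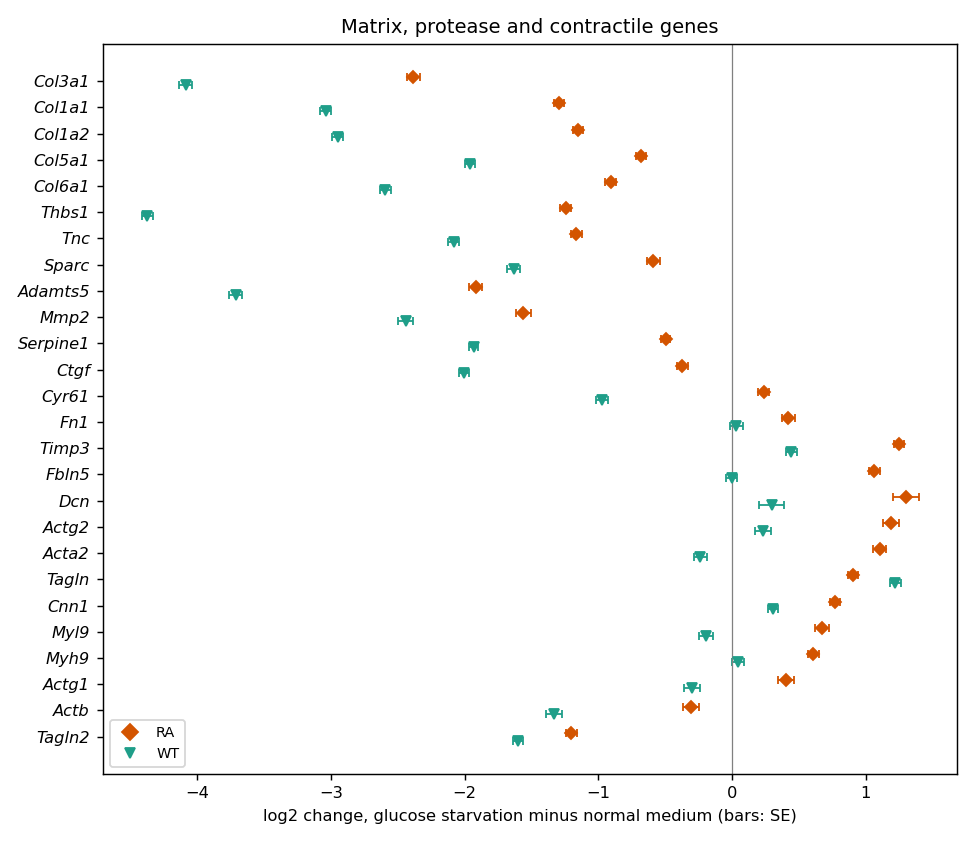
Log2 change (starved minus normal) of matrix, protease and contractile genes in the RA line (diamonds) and the WT line (triangles), with bars of 1 SE from the limma fit. The genes were chosen after their values were seen. Col1a1 lies at -1.29 in RA and -3.04 in WT, and Acta2 at 1.11 and -0.24.

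Further families were moved in part. Of 17 tested clock genes 12 rose and 2 fell, with a median of 0.72. Ciart, a repressor of the clock, rose from 4 and 4.40 to 22.0 and 23.9 (2.20 ± 0.1), Rora by 1.67 and Nfil3 by 1.12, while Per3 and Clock were lower (-0.38 and -0.25). Immediate early genes fell in 9 of 16 cases, with Jun at -1.06 and Egr1 at -0.51, but Klf4 and Myc rose by 1.93 and 0.96. Targets of NRF2 were divided, 10 of 22 higher (45.5%, beside 35.0% of all genes) and 7 lower (31.8%, beside 33.7%). Hmox1, haem oxygenase, stood at 75.5 and 80.4 in normal medium and 380.1 and 369 under starvation, a change of 2.25 (SE 0.039, limma adjusted p = 3.46e-17), while Txn1 and Gsr, of the thioredoxin and glutathione systems, changed by -0.92 and -0.77. Of 11 stress-induced secreted factors 7 rose (63.6%, beside 35.0% of all genes) and 4 fell (36.4%, beside 33.7%). Stc2 stood at 2.90 and Angptl4, which blocks lipoprotein lipase, at -2.50.

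Of 21 tested FOXO factors and targets 8 rose (38.1%, beside 35.0% of all genes), 3 fell (14.3%, beside 33.7%) and 10 were not called, with a median of 0.084. Foxo3 rose by 0.26 (SE 0.076, limma adjusted p = 0.00669), and without RA replicate 2 of normal medium the change was 0.16 and not called (limma adjusted p = 0.0962). Foxo1 was -0.066 and not called. Gadd45a, Klhl24 and Trp53inp1 led the risers at 3.58, 1.93 and 1.66, and Sesn1 and Cited2 changed by -0.83 and -0.61. Of 8 AMPK genes 5 fell (62.5%, beside 33.7% of all genes) and 1 rose (12.5%, beside 35.0%). Prkag1 changed by -0.81 and Stk11, the upstream kinase LKB1, by -0.57. Of 11 tested mTORC1 genes 6 rose (54.5%, beside 35.0% of all genes) and 1 fell (9.1%, beside 33.7%), with Tsc1 at 0.88. Among 29 subunits of Pontin complexes 15 rose (51.7%, beside 35.0% of all genes) and 8 fell (27.6%, beside 33.7%). All 29 changes lay within -0.51 and 0.70. Epc1, of the TIP60 complex, rose by 0.70 and Kat5, its acetyltransferase, by 0.23, while Ruvbl2, which encodes the partner Reptin, was lower (-0.16, limma adjusted p = 0.00486), a call lost without RA replicate 2 of either medium (-0.12 in both cases). All 8 tested arginine methyltransferases were called, beside 68.7% of all genes. Of these 4 were higher (50.0%, beside 35.0%) and 4 lower (50.0%, beside 33.7%), with a median of -0.016. Carm1, the enzyme the study links to Pontin, stood at 134 and 138 in normal medium and 110.2 and 111 under starvation. Its change was -0.30 (SE 0.041, limma adjusted p = 5.82e-06). These are RNA values, whereas the increase of CARM1 under glucose starvation that the paper reports is in protein.

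The RA response was then set beside that of the WT line through the interaction, the RA change minus the WT change. In the WT line 78.6% of genes were called between the media. The 2 changes differed for 8207 of 16232 genes (50.6%), with the RA change above the WT change in 3972 (24.5%) and below it in 4235 (26.1%). Which side held more genes depended on the scaling, with 4648 above and 3353 below after scaling to the column total and 3459 above and 4577 below after quantile normalization. Among differences of at least 2-fold, 818 were above and 172 below. Of the genes called in both lines in the same direction and differing between them, 3759 changed less in RA and 657 changed more. Another 773 genes were called in opposite directions, of which 488 rose in RA and fell in WT.

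**Figure D4:**
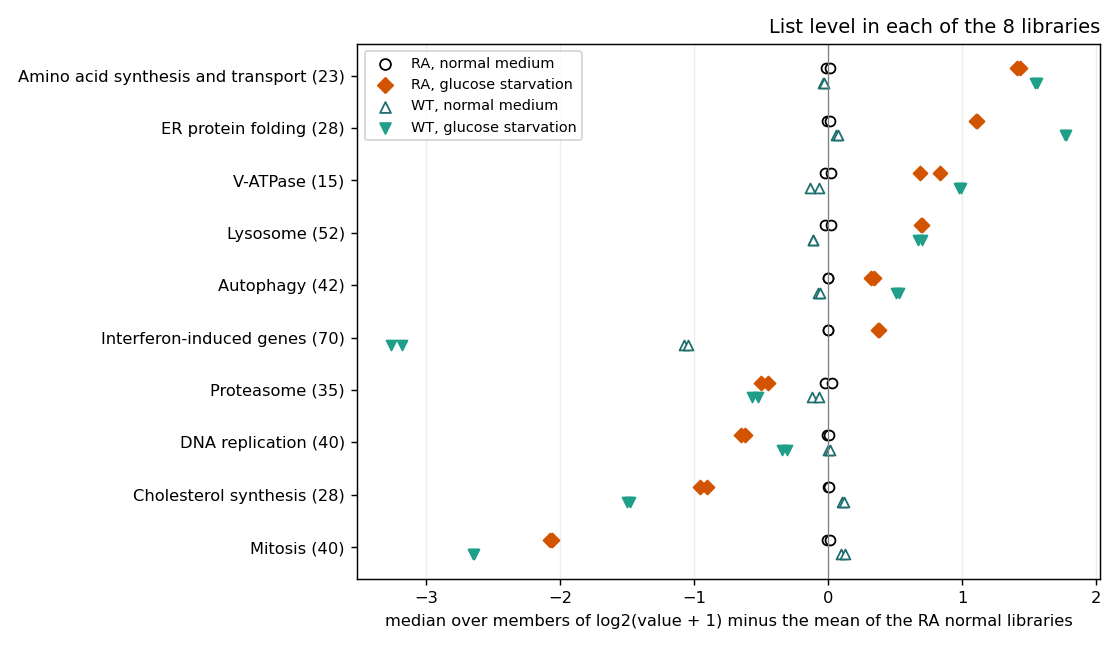
Level of 10 lists in each of the 8 libraries, as the median over tested members of log2(value + 1) after subtracting each gene's mean in the 2 RA libraries of normal medium. Replicates lie furthest apart in the proton pump (V-ATPase) list, at 0.83 and 0.69 in the starved RA libraries. The interferon list lies at 0.37 and 0.38 in the starved RA libraries and at -3.19 and -3.26 in the starved WT libraries.

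The widest gap lay in the interferon list. In WT 66 of its 70 genes fell, with a median of -2.14, and 69 of 70 responses were higher in RA than in WT (background 24.5%). Ifit3 went from 80.7 and 84.8 to 3.23 and 3.34 in WT and from 334 and 329.8 to 659 and 665 in RA, a difference of the responses of 5.28 (SE 0.059, limma adjusted p = 3.49e-19). Rsad2 went from 26.05 and 26.3 to 1.38 and 0.694 in WT and from 85.5 and 79.3 to 159.8 and 162 in RA, a difference of 4.72 (SE 0.15, limma adjusted p = 1.16e-13). The RA libraries of normal medium lay above the WT libraries in both genes before starvation. Chemokines shared the gap, 10 of 11 with the RA change above, as did all 16 collagens, whose median was -0.44 in RA and -1.81 in WT. In 17 of 18 contractile genes the RA change was above the WT change. 

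Programmes that moved the same way in both lines differed in size. Mitotic genes fell in both, and 38 of 40 fell less in RA (background 24.5% above WT), with medians of -2.06 and -2.78. Plk1 went from 91.5 and 90.3 to 3.73 and 2.94 in WT, and the responses differed by 1.12 (SE 0.15, limma adjusted p = 9.72e-06). Genes of DNA replication went the other way round. Their median was -0.63 in RA and -0.32 in WT, and in 27 of 40 the RA change was below the WT change (background 26.1%). Pcna went from 229 and 237 to 151 and 150.4 in RA and from 211 and 218 to 215 and 234 in WT, a difference of -0.69 (SE 0.06, limma adjusted p = 7.97e-08). Sterol genes mostly fell less in RA, with 18 of 28 responses above WT (background 24.5%) and medians of -0.92 in RA and -1.61 in WT. 

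ER folding genes rose less in RA, 23 of 28 below WT (background 26.1%), with medians of 1.11 and 1.70. Calr, the ER lectin calreticulin, went from 1506 and 1628 to 3021 and 2992 in RA and from 1570.4 and 1608 to 6246 and 6604 in WT, a difference of -1.07 (SE 0.072, limma adjusted p = 2.94e-09). Hspa5 rose by 1.53 in RA and 1.65 in WT, a difference of -0.12 that was not called (SE 0.063, limma adjusted p = 0.12), and under quantile normalization the difference turned to 0.19 and was called. Amino acid genes showed 15 of 23 responses below WT with close medians (1.42 and 1.59). Proton pump genes showed 13 of 15 below WT, lysosomal genes 23 of 52 below and 10 above, and autophagy genes 21 of 42 below and 3 above. Over all tested genes 26.1% of responses were below and 24.5% above. Atg14 differed by -1.19 (SE 0.12, limma adjusted p = 4.77e-07), Map1lc3b by -0.85 and Ulk1 by -0.80, while for Sqstm1 the RA change was above the WT change (0.21, limma adjusted p = 0.00246). Cytosolic ribosomal proteins were below WT in 75 of 76 cases, with medians of 0.19 and 0.62.

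**Figure D5:**
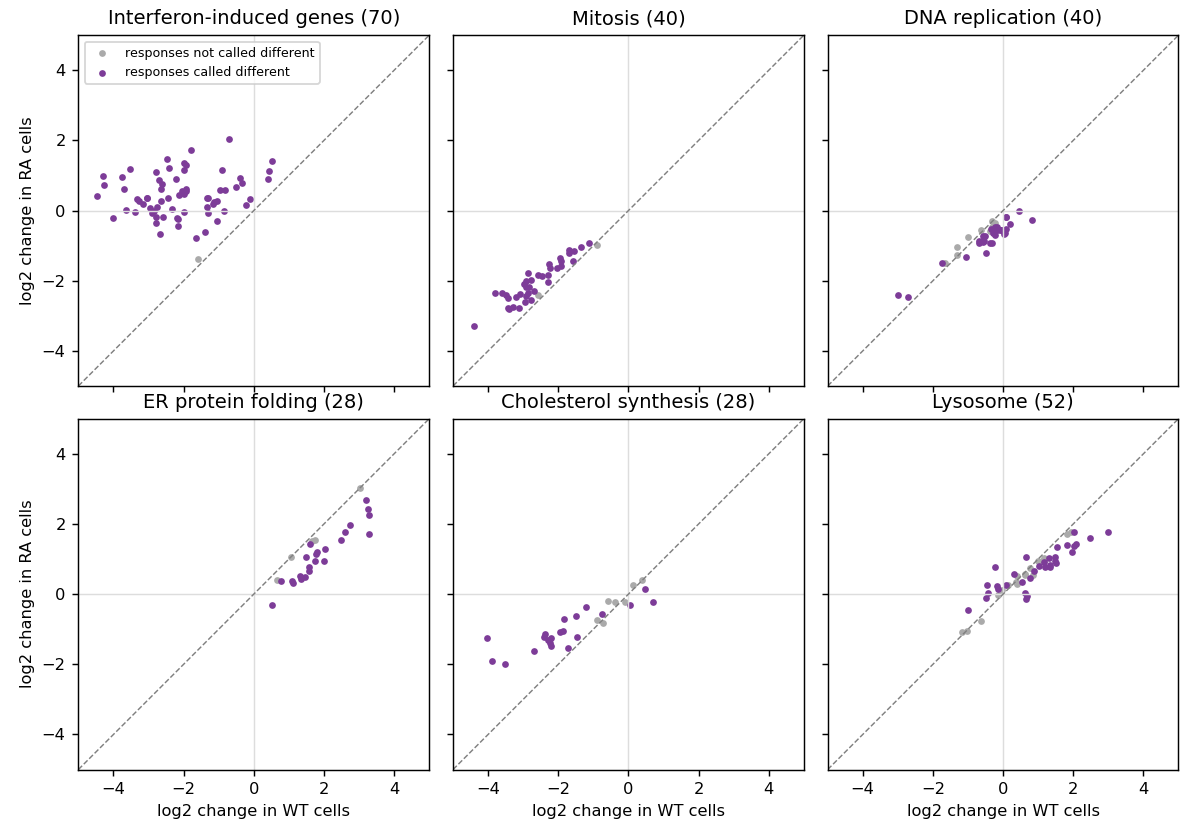
Log2 change in the RA line (vertical axis) against that in the WT line (horizontal axis) for the tested members of 6 lists, with the line of equal change dashed. Purple points are genes whose 2 responses were called different. Interferon genes mostly lie left of 0 in WT and near or above 0 in RA, mitotic and sterol genes mostly above the dashed line, and replication and ER genes mostly below it.

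Differences were ranked among genes called in RA with a mean value of at least 10 over all 8 libraries. Of these, the response lay furthest below that of WT in Plcxd2, Gm15638, Klhl24, Sord, Elovl4 and Hid1. Plcxd2 rose from 15.2 and 12.6 to 65.8 and 65.7 in RA and from 10.9 and 11.9 to 219 and 207 in WT, a difference of -1.94 (SE 0.1, limma adjusted p = 1.1e-10). Gm15638, an antisense transcript whose exons share no bases with those of Plcxd2 in GENCODE M21, differed by -1.89. Its value was 0.887 to 0.934 of that of Plcxd2 in all 8 libraries, so whether the pair are separate measurements cannot be told. Sord, which converts sorbitol to fructose, rose by 0.46 in RA and 2.14 in WT, and Klhl24, a FOXO target, by 1.93 and 3.72. Elovl4, which makes very long fatty acids, rose by 0.25 and 1.89, and Hid1 by 1.04 and 2.68. All 6 rose in both lines, by less in RA.

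Many of the named genes share exon bases with another gene in GENCODE M21 and are uncertain to that extent. Beside the pairs given above, those that share at least 200 bases with a gene on the opposite strand are Aldh1l2, Atg14, Atp6v0b, Bak1, Bnip3, Carm1, Ccnd1, Cdkn1a, Dnaja1, E2f8, Eif2ak1, Eif2ak3, Epc1, Foxo1, G6pdx, Gabarapl1, Hexa, Hmgcs1, Hsp90b1, Idi1, Irs1, Jun, Kat5, Mlxip, Ndrg1, Pdgfra, Psmd1, Rb1cc1, Ruvbl2, Slc6a9, Stk11, Tagln, Timp3 and Uvrag. Those that share as many with a gene on the same strand are Ctsd, Gbp6, Tgtp1 and Wdr45, and further named genes share fewer bases.

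Of the markers of other cell types, 3 of 8 endothelial, 3 of 9 epithelial and 3 of 8 neural genes passed the filter. The summed endothelial level was 3.75 and 2.52 in normal medium and 9.34 and 10.1 under starvation. The summed neural level was 349.8 and 349.4 in normal medium and 169.9 and 166.6 under starvation, and the epithelial level was 89.6 and 102.0 against 68.8 and 65.0. The part of these levels in the results above was not tested.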

How the data were processed

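Poly(A) RNA of 4 groups with 2 libraries each was sequenced paired-end. The authors aligned the reads with TopHat2 2.0.9 to the mouse genome mm9, and their processing notes also name bedtools and edgeR. The read counter, the annotation and the handling of strand are not given in the sources used here. The deposited values are a signal per gene, CPM of a library size scaled per sample. Columns marked minus were taken as normal medium and those marked plus as starved.

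All values were whole multiples of 1 read per library (100% within 0.05 of a whole number), and 78.2% to 80.5% of low values were even numbers of reads, so both mates of a pair may have been counted, and totals and the floor of 3 reads may be up to 2 times the fragments. The 8 libraries held 43205841 to 56363034 reads. Of 49492 rows, 16232 that reached a value of 1 in 2 or more of the 8 samples were tested, of which 19 have names that had turned into dates. The values were fitted as log2(value + 1) with limma 3.58.1 (R 4.3.3) over 4 group means, with a mean-variance trend and Benjamini-Hochberg adjustment over all tested genes, called under 0.05. The difference of responses was the RA change minus the WT change. The script was tested on simulated data with few changed genes and the same spread for every gene. These data differ from that setting, so the test checks the code and not the calls made here. Other pseudocounts, filters, scalings, thresholds and fits, edgeR 4.0.16 and DESeq2 1.42.0 on recovered reads, a replicate block and leaving out each library were alternatives.

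The lists and their members were chosen with earlier results of these data known. Named were preset key members of each list, up to 3 called members with the largest rise and the largest fall per subgroup, the 15 largest rises and falls in RA (mean of at least 10, groups apart), the 6 highest and 6 lowest differences between responses, and Ruvbl1. The differences were ranked among genes called in RA with a mean of at least 10 over all libraries. Exceptions are marked, and some named items are not reported here. Promoters (250 bases before the start) came from RefSeq, GRCm38.p6, and 10351 of the tested genes matched. Exon overlaps came from GENCODE M21.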

Additional observations from a re-analysis of the deposited data

Results flagged for a closer look

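By the interaction test of the limma fit, the response to starvation differed between the RA and the WT line in 8207 of 16232 genes (50.6%). Flagged here are 12 of these, the 6 at either end of the ranking. The ranking held genes called in RA with a mean of at least 10 over all libraries. Among genes with a higher response in RA, the difference was 5.28 for Ifit3, 4.996 for Ifit3b, 4.90 for Ifit1, 4.72 for Rsad2, 4.71 for Oasl2 and 4.32 for Cmpk2 (log2, 2 libraries per group). All 6 are interferon-induced, and each rose in RA and fell in WT. Among genes with a lower response in RA, the difference was -1.94 for Plcxd2, -1.89 for Gm15638, -1.79 for Klhl24, -1.68 for Sord, -1.64 for Elovl4 and -1.64 for Hid1. These 6 rose in both lines. The limma adjusted p of the difference was 3.49e-19 for Ifit3 and 1.1e-10 for Plcxd2. Since each genotype was 1 line, the form of Pontin and the line cannot be told apart.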

How the results depend on the processing

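No gene called in the RA response changed direction under an alternative that also called it, and of 431 named RA results 388 kept their call under every alternative, with none reversed. Of 438 named differences between the lines 353 kept theirs, and of 48 list medians 10 moved under no alternative by more than the spread between replicates. The number of called genes ranged from 10039 to 11151 (RA), 11945 to 12881 (WT) and 7170 to 7931 (difference of responses) when each library was left out in turn. An adjusted p under 1e-05 left 4961, 7399 and 1764 genes, and a change of at least 2-fold left 1465, 3179 and 990. On recovered reads edgeR called 11114 RA genes and DESeq2 10553. Of the genes called different between the lines, the share with the RA change above was 48.4%, against 58.1% after scaling to the column total, 43.0% after quantile normalization and 53.2% with edgeR, so the larger side depends on the scaling. The labels do not say that replicate numbers pair samples, and the correlation of deviations between same-numbered samples ran from -0.0076 (between the RA groups) to 0.16 over the 6 pairs of groups, and from -0.027 to 0.30 among genes with a mean over 10. With the number as a replicate block 11406, 12922 and 8578 genes were called. The difference for Hspa5 became 0.19 under quantile normalization.

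The medians of 7 of 48 lists, each near 0 or of few genes, changed sign. With a value of at least 5 required in 2 samples, the median was 0.10 for the carbohydrate response, -0.068 for glycolysis, 0.037 for NRF2 targets and -0.55 for epithelial markers, and quantile normalization gave 0.027 for growth factors. On leaving out each library, glycolysis ranged from -0.0046 to 0.12, NRF2 from -0.018 to 0.10, with 0.0044 without RA starved replicate 1 and 0.042 without RA starved replicate 2. Growth factors ranged from -0.071 to 0.0081, AMPK and mTORC1 from -0.079 to 0.11 and arginine methyltransferases from -0.027 to 0.020. The cause was not tested. Values near the floor of 3 reads are limited by depth.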
